A study of Mus musculus with 12 samples.

Results

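The comparison concerns 6 of the 12 RNA sequencing libraries of a study on mouse B cell precursors: 3 sorted controls and 3 untreated overnight cultures, each numbered 242, 249 and 251. They were chosen by their labels alone, and the libraries with the same number were set against each other. All 6 carry the genotype label control and were labelled untreated, and the study's design text calls the overnight cells wildtype. The precursors were raised from cultured hematopoietic stem cells in supplemented Iscove's medium with IL7. The sorted controls were separated by flow cytometry on B220, the CD45 isoform typical of B lineage cells, and their RNA was isolated at once. The untreated overnight cultures were neither sorted nor given an agent, and were kept overnight before RNA isolation as the partner of cultures with 40 nM of the GSK3 inhibitor LY2090314. The remaining 6 libraries are 3 inhibitor cultures with the same 3 numbers and 3 sorted libraries of Mb1-Cre mice with a stabilised β-catenin allele (Catnb lox(ex3)). The labels do not say what a number marks, whether 2 libraries of 1 number came from 1 animal or culture, or whether the controls carry Mb1-Cre. The sort was present in 1 group and the night in culture in the other, so the sort and the culture cannot be told apart by this design.

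B cell precursors grow in response to IL7, which acts through JAK kinases and STAT5 and keeps the cells dividing and alive. Cultures started from hematopoietic stem cells can also hold mast cells, granulocytes and macrophages, which a sort on B220 is meant to leave behind. The transcription factor p53 answers DNA damage and other stresses by raising genes that stop the cell cycle or start apoptosis, and the Cdkn2a locus, which encodes Ink4a and Arf, restrains B cell precursors in culture and lies upstream of p53.

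The library totals ran from 31.9 to 49.6 M counted fragments (M, mega), and levels are given as FPKM, fragments scaled to transcript length and library total. Differences are on the scale of log2(FPKM + 1), always untreated overnight minus sorted control, and were tested with limma over the 12513 genes at 1 FPKM or more in at least 3 of the 6 libraries. A gene was called when its Benjamini-Hochberg adjusted p was under 0.05. Whether the 3 libraries of a group came from separate animals is not stated, and every p-value here describes how far these libraries varied, which may be technical. Adding 1 pulls the fold change of low genes toward 0. A tested gene that reached 1 FPKM in one group only had to be higher in that group, and this holds for 159 genes overnight, among them Il17f, Gata3, Mmp12 and Mrgprb1, and for 115 sorted, among them Tead1, Ak4, Hoxa9, Flt3, Siglech and Cd300c. A call of such a gene is a description and supports nothing further.

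Overnight, 537 genes rose (4.29% of those tested) and 502 fell (4.01%), 8.3% in all, and 170 and 147 of them, respectively, changed at least 2-fold. The groups did not overlap, with overnight higher, in 17.8% of the tested genes, and with overnight lower in 18.1%. An unadjusted p under 0.05 by limma was met by 3633 tested genes in either direction. A change of at least 1 on the log2 scale in each of the 3 pairs was met by 164 genes upward (1.31%) and 68 downward (0.543%). The calls rested heavily on single libraries. Without the sorted control library 251 they numbered 16 higher and 7 lower, without sorted control 249 they were 58 and 24, without sorted control 242 they were 77 and 53, and without overnight library 251 they were 113 and 128. In all 6 fits that each left out 1 library, 15 genes were called higher and 7 lower. For many of the genes given with a test, the text gives in how many of these 6 fits they were called.

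Genes of mast cells rose in the unsorted overnight cultures, and 8 of the 14 tested members of the mast cell and basophil list were called, beside 4.29% of all tested genes called higher. Of these 14, 3 reached 1 FPKM in overnight libraries only. Tpsb2, a mast cell tryptase (chr17:25366305-25369098, GRCm38), had 0.41, 21.8 and 9.15 FPKM in sorted libraries 242, 249 and 251, and 114, 748 and 179 FPKM overnight. Cpa3, the mast cell carboxypeptidase (chr3:20215620-20242181), stood at 0.938, 12.1 and 9.01 FPKM sorted and at 80.2, 554 and 145 FPKM overnight. For both genes the lowest overnight library, 242, was above every sorted library. The log2 difference was 5.18 (SE 1.09, limma adjusted p = 0.037) for Tpsb2 and 4.89 (SE 0.90, adjusted p = 0.0277) for Cpa3, each called in 2 of the 6 fits. Other called members were the chymase Cma1, the IL33 receptor gene Il1rl1, the IgE receptor genes Fcer1a and Ms4a2, the transcription factor gene Gata2 and the mast cell receptor gene Mrgprb1. Mcpt8, a basophil protease that did not pass the filter, was listed at 0 in all 3 sorted libraries and at 0.552, 90.4 and 0.879 FPKM overnight. Kit, the stem cell factor receptor that early B cell precursors also carry, was not called, at 24.7, 20.3 and 17.5 FPKM sorted and 15.8, 83.8 and 21.1 FPKM overnight. Summed over the 20 listed genes, the level was 316, 387 and 369 FPKM sorted and 612, 2649 and 816 FPKM overnight. In these bulk libraries, fewer cells of a type and less RNA per cell cannot be told apart. The 8 calls became 0 without any 1 sorted control library, 0 without overnight library 251, and 0 of 14 in voom on the recovered fragments, and they were 4 of 8 tested members without both libraries numbered 249.

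Neutrophil genes differed most between the 3 overnight libraries. S100a8, a calcium-binding protein of neutrophil cytosol, stood at 0.41, 3.03 and 1.15 FPKM sorted and at 10.2, 2180.3 and 144 FPKM overnight. Ltf, lactoferrin of neutrophil granules, stood at 0.355, 1.24 and 0.322 FPKM sorted and at 6.52, 863 and 49.1 FPKM overnight. In both genes overnight library 249 was far above the other two, and the groups did not overlap. The differences of 6.05 (SE 1.69, limma adjusted p = 0.0705) and 5.44 (SE 1.51, adjusted p = 0.07) missed the threshold. By limma, 0 of 9 tested neutrophil genes, 3 of which reached 1 FPKM in overnight libraries only, were called, and voom also called 0. By limma 8 of the 9 had an unadjusted p under 0.05, beside 3633 of the 12513 tested genes in either direction. Without overnight library 242, 5 of 6 tested members were called, and without overnight library 249, 2 of 6. The early granule genes Elane and Mpo were close to 0 outside library 249, with 0.642, 66.1 and 0 FPKM for Elane and 0.145, 61.1 and 0.289 FPKM for Mpo overnight, and at most 0.352 FPKM in any sorted library.

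Summed over the 20 genes of the list, neutrophil genes came to 14.9, 21.9 and 12.7 FPKM sorted and to 49.2, 8480.5 and 513 FPKM overnight. The inhibitor cultures of the same numbers had 112, 8284 and 413 FPKM. Library 249 was thus the highest in each overnight group, and 242 the lowest. The monocyte and macrophage list followed the same order overnight, at 179.6, 3559.7 and 330.3 FPKM against 100.5, 142 and 122 FPKM sorted. Lyz2, the lysozyme of myeloid cells, accounted for 36.7, 2317 and 131 FPKM of this overnight and for 2.96, 13.6 and 7.02 FPKM of it in the sorted controls. Its difference of 4.87 was not called (limma adjusted p = 0.0742). None of the 12 tested members of the list was called by limma or by voom, and without overnight library 249 there were 4 calls among 11. An unadjusted p under 0.05 by limma was met by 5 of the 12, beside 3633 of the 12513 tested genes in either direction. The macrophage genes Gpnmb and Mmp12, which are outside the list, were among the 12 highest rises: Gpnmb went from 0.73, 3.41 and 2.18 FPKM to 41.4, 434 and 58.8 FPKM (log2 difference 5.16, SE 0.85, adjusted p = 0.0228, called in 2 of the 6 fits). Mmp12 reached 1 FPKM in overnight libraries only, so its direction was set by the filter.

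**Figure D1:**
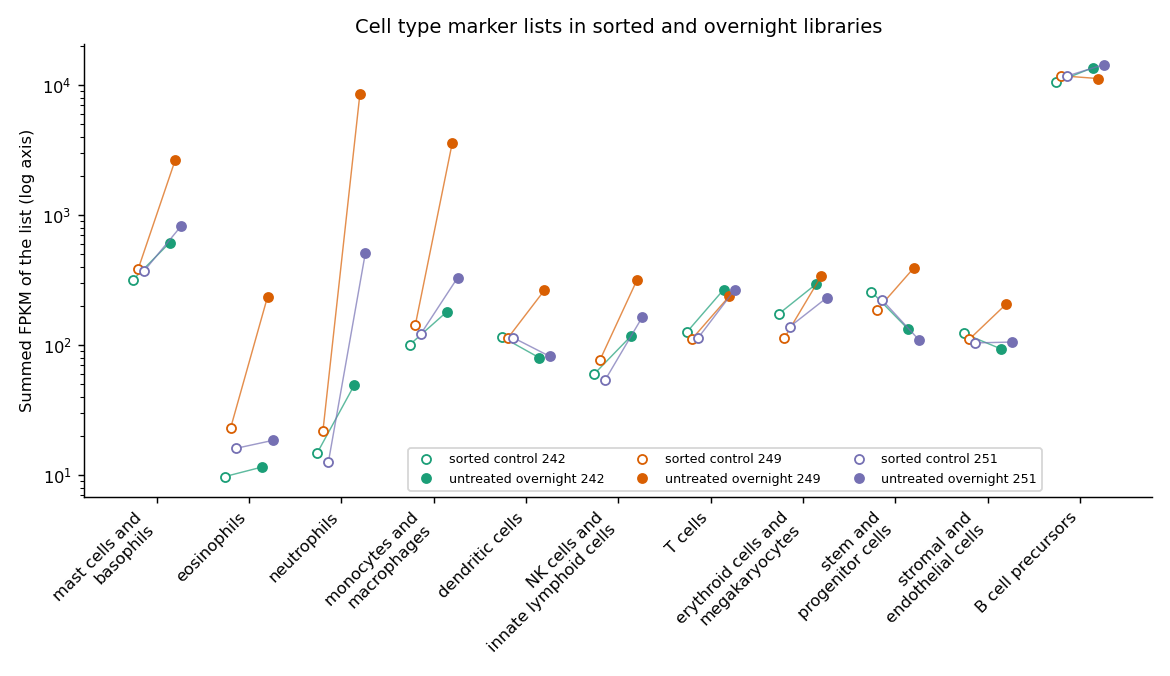
Summed FPKM of each cell type list (log axis) in the 6 libraries, with open points for sorted controls, filled points for untreated overnight cultures and lines joining libraries of the same number. The neutrophil sum rises from 21.9 to 8480.5 FPKM in number 249 and from 14.9 to 49.2 FPKM in number 242, whereas the sum for B cell precursors stays between 10443 and 14342 FPKM in all 6 libraries.

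A cytokine gene of innate lymphocytes was also high overnight. Il17f, which encodes a cytokine of the IL17 family, went from 0.202, 0.0301 and 0.235 FPKM to 2.33, 34.9 and 9.9 FPKM (log2 difference 3.25, SE 0.76, limma adjusted p = 0.0475). Il17f reached 1 FPKM in overnight libraries only, so its direction was set by the filter and its call is a description. It was highest in overnight library 249 and lowest in 242, the order of the neutrophil genes, and was called in 0 of the 6 fits with a library left out. Of the 8 tested genes of the NK and innate lymphoid list, Il7r and Gata3 were called higher (Gata3 in 0 of the 6 fits), beside 4.29% of all tested genes. The other 6 were not called, and 2 of the 8 reached 1 FPKM in overnight libraries only.

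Of 6 tested genes of the T cell list 3 signalling genes rose, beside 4.29% of all tested genes called higher, and 3 were not called. Of the 6, 2 had a difference below 0. In 1 of these the groups did not overlap, with overnight lower, and its unadjusted p was under 0.05. It reached 1 FPKM in sorted libraries only, so its direction was set by the filter. Voom called 1 member lower. Lck, a Src family kinase, stood at 63.9, 56.7 and 63.9 FPKM sorted and at 135, 120.0 and 137 FPKM overnight, with pair differences between 1.07 and 1.08 and a limma adjusted p of 0.00457, and was called in all 6 fits. Zap70, the kinase of the T cell receptor complex, went from 0.849, 1.41 and 1.14 FPKM to 4.11, 6.47 and 8.15 FPKM (adjusted p = 0.0175, 3 of 6 fits), and the adaptor Lat rose from 53.1, 36.3 and 37.9 to 121, 70.6 and 113 FPKM (adjusted p = 0.0289, 1 of 6 fits). The receptor complex gene Cd3e and the receptor constant region Trac were low in the same libraries, with Cd3e at 0.132, 0.554 and 0.374 FPKM and Trac at 0.455, 2.01 and 0 FPKM overnight. Genes with the symbol of a receptor segment, Trac and Trbc2 of the list included, were not low as a whole. Of these, 18 were tested and 1 was called higher. All 259 together summed to 613, 372 and 468 FPKM sorted and to 492, 476 and 473 FPKM overnight. The match was by symbol, so it can hold genes that are not segments, and it leaves out symbols that start with Tcrg. Tcrg-C4, a receptor constant gene that is not among these 18, was chosen after its values were seen. Its level went from 1, 0.512 and 0.89 FPKM to 4.77, 12.6 and 3.62 FPKM (1.99, SE 0.40, adjusted p = 0.0322, 2 of 6 fits). Only 6 of the 16 listed genes passed the filter. Without both libraries numbered 242 or both numbered 251, 0 of these genes were called.

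The red cell genes Hbb-bs, Hba-a2, Slc4a1 and Car1 were at or near 0 throughout. Of the list of erythroid cells and megakaryocytes Itga2b and Car2 rose, of 4 tested, beside 4.29% of all tested genes called higher. Of these 4, 2 reached 1 FPKM in overnight libraries only. Itga2b, the platelet integrin gene, went from 1.3, 2.31 and 3.01 FPKM to 10.8, 41.2 and 9.89 FPKM (limma adjusted p = 0.0361, 2 of 6 fits). The carbonic anhydrase gene Car2, which made up most of the list's sum, went from 171, 109.5 and 133 to 277, 228 and 215 FPKM (adjusted p = 0.0381, 2 of 6 fits). The platelet chemokine genes Pf4 and Ppbp were not called, with Pf4 at 0.0445, 0.531 and 0 FPKM sorted and 1.09, 51.3 and 2.66 FPKM overnight. Hbb-bs, an adult globin gene, did not exceed 0.108 FPKM in any of the 6 libraries. Stromal genes gave 0 calls of 2 tested by limma and by voom, 1 of them with an unadjusted p under 0.05, and eosinophil genes 0 of 3, with 0 such genes. In the dendritic cell list 3 of 9 tested genes were called lower, beside 4.01% of all tested genes. All 3 were among those at 1 FPKM in sorted libraries only, and 0 were called without any 1 sorted control. The 3 genes were the cytokine receptor gene Flt3, which early lymphoid progenitors also carry, and Siglech and Cd300c, which were at 1.15 to 1.99 FPKM sorted and at 0 to 0.554 FPKM overnight.

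Genes of B cell precursors marked both groups. Igll1, which encodes the surrogate light chain component λ5, stood at 1302, 956 and 1119 FPKM sorted and at 1331, 1044 and 1188 FPKM overnight (limma adjusted p = 0.748). Its groups overlapped, as did those of Pax5 (469, 614 and 547 against 477, 433 and 744 FPKM), the factor that commits cells to the B lineage, and of the recombinase gene Rag1 (22.7, 18.4 and 14.5 against 10.7, 18.4 and 13 FPKM). Of the 23 listed precursor genes, all tested, Il7r and Vpreb3 (1 of 6 fits) rose and 21 were not called, with a list median of 0.11. Among 29 B lineage transcription factors, Irf8 (1 of 6 fits) and Myb (2 of 6) rose and 27 were not called. Beside both lists, 4.29% of all tested genes were called higher. Library 249 had the lowest overnight sum of precursor genes, 11194 FPKM against 13571 in 242 and 14342 in 251.

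A few genes of mature B cells were lower overnight. Cd22, an inhibitory receptor of mature B cells, stood at 31.9, 88.5 and 64.9 FPKM sorted and at 17.9, 8.4 and 18.9 FPKM overnight (log2 difference -1.93, SE 0.42, limma adjusted p = 0.0404, 1 of 6 fits). Ighg2b, a constant region of switched antibody, was at 37.9, 116 and 89.1 FPKM sorted and at 3.8, 3.08 and 4.71 FPKM overnight (-3.95, SE 0.38, adjusted p = 0.00714, 5 of 6 fits, lost without sorted control 251). It was chosen after its values were seen. The CD20 gene Ms4a1 was not called, at 1.64, 14.5 and 5.14 FPKM sorted and 1.47, 0.122 and 0.0186 FPKM overnight (adjusted p = 0.084). All 3 genes had the same order in the sorted controls, with 249 highest and 242 lowest. Of 21 tested genes of immature and mature B cells, 2 fell (Cd22 and the chemokine receptor gene Cxcr5), beside 4.01% of all tested genes called lower. Called higher were 0, with 1 at an unadjusted p under 0.05 upward and 0 upward calls in voom.

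Variable segments of antibody genes were also looked at after the values were seen. Of 64 tested Ighv segments, which encode heavy chain variable regions, 26 fell and 0 rose, beside 4.01% of all tested genes called lower. Of those 26, 22 belong to the Ighv1 family, of which 32 were tested. Any segment that reached 1 FPKM in one group only had to be higher in that group. Such segments were not counted, so the numbers of calls are a description. The Ighv segments summed to 196, 673 and 498 FPKM sorted and to 126, 54.6 and 68.8 FPKM overnight. Of 66 tested Igkv segments, which encode light chain variable regions, 10 rose and 1 fell, beside 4.29% of all tested genes called higher. The Igkv segments summed to 139.6, 287 and 165 FPKM sorted and 471, 318 and 331 FPKM overnight. The Ighv sum was higher sorted in each pair, and the Igkv sum higher overnight in each pair. The Ighj, Igkj and Iglv segments did not move one way in all pairs: Ighj summed to 438, 399.7 and 292 FPKM sorted and 251, 127 and 312 FPKM overnight, Igkj to 516, 1334 and 711 against 757, 832 and 1529 FPKM, and Iglv to 17.5, 108 and 29.3 against 51.8, 23.3 and 26.3 FPKM. Segments of a family are near copies of each other, so the reads assigned to any single segment are uncertain.

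The 164 genes that rose by at least 1 in each pair fell apart by how alike the pairs were. In 56 of them the 3 pair differences lay within 1 of each other, with medians of 1.45, 1.38 and 1.7 for pairs 242, 249 and 251, and 52 of the 56 were called. The other 108 were uneven, and in 83 of those pair 249 had the largest difference, with medians of 1.51, 4.19 and 2.19. The inhibitor cultures, which took no part in this division, were then looked at. Inhibitor library 249 was at least 2-fold above both other inhibitor libraries for 2 of the 56 even genes (3.57%), for 73 of the 83 uneven genes led by pair 249 (88%), and for 7.99% of all tested genes. Of the cell type lists, the uneven class held 11 mast cell and basophil genes, 7 neutrophil genes, 3 monocyte and macrophage genes, 3 erythroid and megakaryocyte genes, and 1 gene each of the dendritic cell and the NK and innate lymphoid lists. The even class held 2 T cell genes and Il7r, and no gene of the mast cell, neutrophil, monocyte or erythroid lists. The limit of 1 was the same for small and large rises, so a large rise could more easily count as uneven. In pairs 242, 249 and 251, Tpsb2 differed by 6.35, 5.04 and 4.15 and Cpa3 by 5.39, 5.40 and 3.87, and both counted as uneven. The even class held 6 of the 21 tested p53 targets, and the uneven class none.

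**Figure D2:**
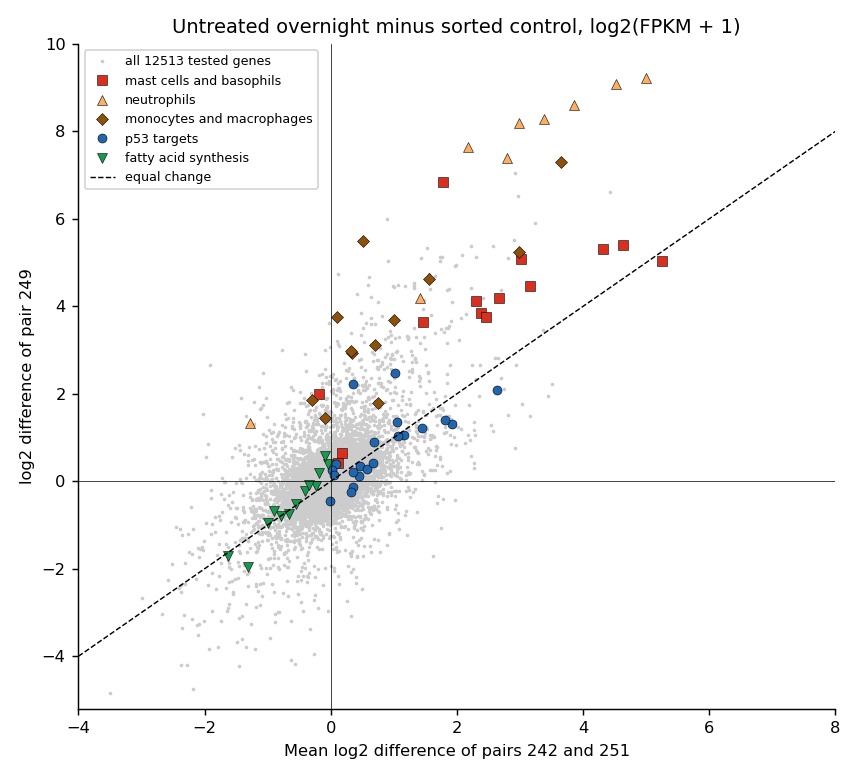
Difference of pair 249 (vertical) against the mean difference of pairs 242 and 251 (horizontal), untreated overnight minus sorted control on the scale of log2(FPKM + 1), for the 12513 tested genes and members of 5 lists. Neutrophil, macrophage and most mast cell genes lie above the dashed line of equal change, whereas the p53 targets that rose most and the fatty acid genes lie near it.

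Targets of p53 rose by similar amounts in the 3 pairs. Of 21 tested members of the list, 8 rose (Phlda3, Bbc3, Zmat3, Ccng1, Cdkn1a, Bax, Sesn2 and Ei24) and 0 fell, with 0 at an unadjusted p under 0.05 downward and 0 downward calls in voom, beside 4.29% of all tested genes called higher. The list median was 0.59 over all 6 libraries and 0.51, 0.43 and 0.72 in pairs 242, 249 and 251. In 15 of the 21 the groups did not overlap with overnight higher, beside 17.8% of all tested genes. Of the 21, 2 reached 1 FPKM in overnight libraries only, so the filter fixed their direction and their lack of overlap. Summed over the 24 listed genes, the level was 683, 765 and 742 FPKM sorted and 1220.5, 1281 and 1395 FPKM overnight. The ratio of these sums was 1.79, 1.67 and 1.88 in pairs 242, 249 and 251, whereas that of the neutrophil genes was 3.31, 388 and 40.4. Voom called 8 of 21. The calls numbered 6 of 19 without both libraries numbered 249, 1 of 19 without both numbered 242 and 0 of 19 without both numbered 251, and 4 or 5 of 21 without any 1 sorted control.

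Phlda3, an inhibitor of AKT that p53 induces (chr1:135766119-135769136), stood at 4.24, 9.14 and 8.78 FPKM sorted and at 42.2, 41.9 and 45.1 FPKM overnight. Its log2 difference was 2.45 (SE 0.25, limma adjusted p = 0.00714), and it was called in all 6 fits. Bbc3, which encodes the death-promoting protein PUMA (chr7:16308393-16318205), went from 16.8, 21.3 and 21.2 FPKM to 63.8, 54.2 and 86.8 FPKM (1.72, SE 0.18, adjusted p = 0.00761), and its call was lost without sorted control 251, at an adjusted p of 0.0576. In both genes the lowest overnight library lay above the highest sorted library. Ccng1, cyclin G (chr11:40748552-40755311), rose from 36.1, 42.7 and 39.5 FPKM to 93, 101 and 118 FPKM (1.37, SE 0.11, adjusted p = 0.00457, all 6 fits). Cdkn1a, which encodes the cell cycle inhibitor p21 (chr17:29090976-29100727), rose from 113, 104 and 117 FPKM to 237, 269 and 241 FPKM (1.16, SE 0.08, adjusted p = 0.00364, all 6 fits). The RNA-binding protein gene Zmat3 rose as well, from 3.29, 5.53 and 4.74 to 12.4, 16.2 and 21.8 FPKM (adjusted p = 0.0173, 3 of 6 fits, lost without any 1 sorted control). Mdm2, which encodes the ligase that removes p53, was not called (0.31, adjusted p = 0.1), and Pmaip1 and Btg2 were also not called (0.18 and 0.19).

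The RefSeq promoter windows of GRCm38, each 250 bases before to 50 after a transcript start, were searched for the p53 response element. The element is 20 bases made of 2 abutting copies of its consensus. The C and the G of each core had to match. Up to 3 mismatches were allowed elsewhere, the bases between that C and G included, where the mismatch of Ccng1 lies. The consensus reads the same on both strands. Of the 24 listed targets 19 had a window, and 6 of those held the element in at least 1 window. Of all 32851 windows 1.38% held it. That share is per window and the count of targets is per gene, and a gene can have several windows, so they cannot be compared directly. The list was also made of known p53 targets, so the count tests nothing. Of the 8 called targets 7 had a window and 3 held the element. Their elements are shown because these are the called targets with a match in a window. The 20 bases are in capitals with 30 bases on each side, read on the strand of the gene.
Cdkn1a, chr17:29090898-29090977, plus strand, element 51 to 32 bases before the start, 1 mismatch: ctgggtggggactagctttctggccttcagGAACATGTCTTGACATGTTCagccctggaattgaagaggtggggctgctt
Ccng1, chr11:40755432-40755511, minus strand, element 195 to 176 bases before the start, 1 mismatch: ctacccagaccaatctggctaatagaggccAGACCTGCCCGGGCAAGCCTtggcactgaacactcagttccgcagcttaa
Bbc3, chr7:16309456-16309535, plus strand, element 97 to 78 bases before the start, 3 mismatches: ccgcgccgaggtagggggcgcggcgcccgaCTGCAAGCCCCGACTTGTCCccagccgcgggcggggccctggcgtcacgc
A match describes the letters in the window, and the other 3 targets that held it, Aen, Ckap2 and Sesn1, were not called.

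Cdkn2a, the locus of Ink4a and Arf (chr4:89274471-89294653), was among the 3 largest rises with even pairs. It stood at 8.32, 12.7 and 10.5 FPKM sorted, 10.5 ± 2.18 (SD, n = 3), and at 63.3, 69.4 and 69.2 FPKM overnight, 67.3 ± 3.48 (SD, n = 3). The log2 difference was 2.59 (SE 0.14, limma adjusted p = 0.0013), and it was called in all 6 fits. FPKM per gene do not separate the transcripts of Ink4a and Arf. In the inhibitor cultures the gene stood at 25.9, 20.2 and 26.8 FPKM, between the other groups. The inhibitor Cdkn2c rose from 45.8, 53.5 and 50.7 to 80.1, 74.5 and 105 FPKM (adjusted p = 0.0265, 3 of 6 fits).

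Genes of the BCL2 family, which decide between survival and apoptosis, moved in both directions. Bax, the pore-forming executioner (chr7:45461697-45466898), stood at 119, 121 and 122 FPKM sorted and at 275, 251 and 267 FPKM overnight (1.13, SE 0.07, limma adjusted p = 0.00169, all 6 fits). The survival gene Bcl2l1, which encodes BCL-XL, rose from 54.6, 70 and 60.2 to 112, 114 and 142 FPKM (0.98, SE 0.13, adjusted p = 0.0136, 4 of 6 fits). Bid and Bcl2l11, which encode the death-promoting proteins BID and BIM, fell: Bid from 46.9, 44.8 and 51.3 to 33.7, 33.2 and 30.1 FPKM, and Bcl2l11 from 51.4, 54.5 and 54.3 to 35, 42.1 and 38.4 FPKM, each called in 2 of the 6 fits. Of 14 tested members 4 rose (with Bbc3 and Bad) and 2 fell, beside 4.29% of all tested genes called higher and 4.01% called lower. Without sorted control 251 the upward calls came down to 1 of 14, Bax.

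**Figure D3:**
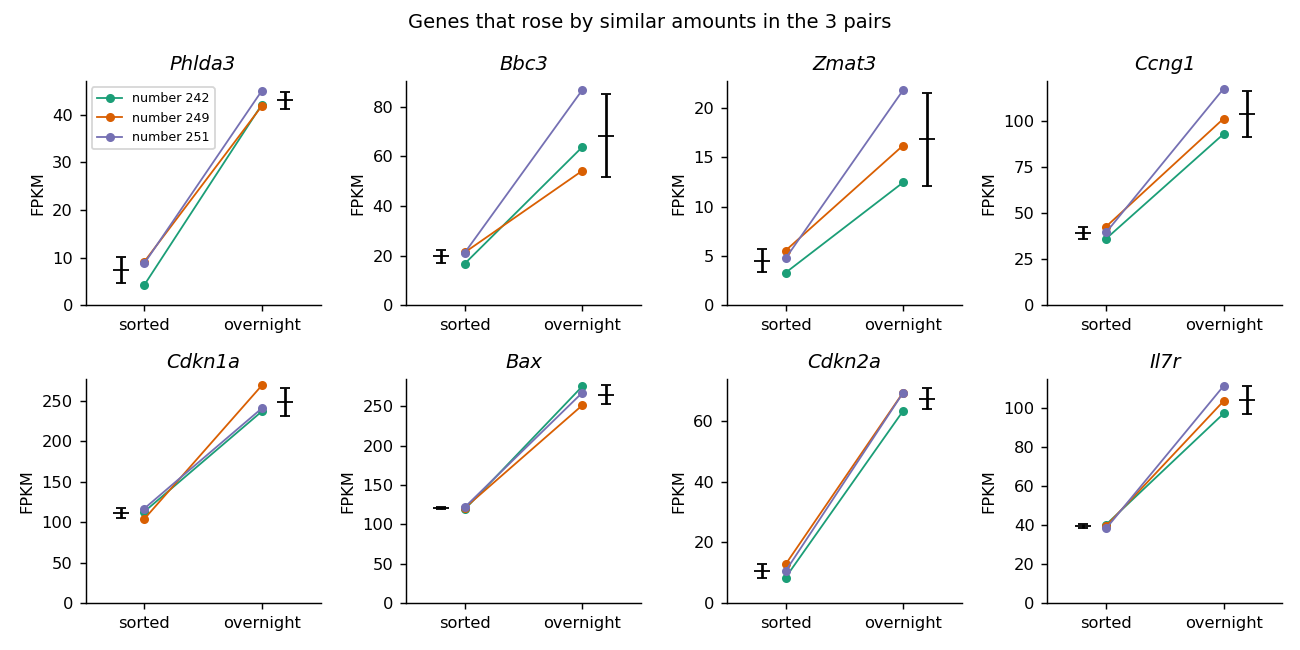
FPKM of 8 genes in the 3 sorted controls and the 3 overnight cultures, with lines joining libraries of the same number and black bars giving mean ± SD (n = 3). Each overnight library lies above each sorted library in all 8 genes, and number 249 does not stand apart: Cdkn2a is at 63.3, 69.4 and 69.2 FPKM overnight.

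Genes of growth were lower overnight by small amounts. Of 36 genes of ribosome biogenesis 8 fell and 0 rose, with 0 at an unadjusted p under 0.05 upward and 0 upward calls in voom, beside 4.01% of all tested genes called lower, and the list median was -0.27. Polr1a, the largest subunit of RNA polymerase I, stood at 34.5, 32.1 and 32.2 FPKM sorted and at 22.2, 20 and 18.7 FPKM overnight (-0.68, SE 0.09, limma adjusted p = 0.016, 3 of 6 fits). The nucleolar helicase gene Ddx21 fell from 76.1, 69 and 76.7 to 54.6, 50 and 47.1 FPKM (adjusted p = 0.022, 2 of 6 fits). The groups did not overlap with overnight lower in 18 of the 36, beside 18.1% of all tested genes. All 8 calls were lost without any 1 sorted control, and 16 of 36 were called without overnight library 242. Messenger RNAs of cytosolic ribosomal proteins gave 0 calls of 37 by limma and by voom, with 2 at an unadjusted p under 0.05 upward and 0 downward.

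Myc, which drives ribosome and nucleotide synthesis, was not called, at 163, 96.2 and 146 FPKM sorted and 88.5, 58.8 and 48.1 FPKM overnight (-1.05, SE 0.27, limma adjusted p = 0.0558). Its groups did not overlap, and the fit without overnight library 242 called it (adjusted p = 0.0393). Of 22 genes of the MYC list, 2 fell, Ldha and the spermine synthase gene Sms, beside 4.01% of all tested genes called lower. The amino acid transporter genes Slc7a5 and Slc7a1 fell, Slc7a1 from 69.8, 55.2 and 57.9 to 39, 30.7 and 34.2 FPKM (-0.80, SE 0.12, adjusted p = 0.021, 2 of 6 fits).

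A few genes of the start of the cell cycle fell. Of 34 genes of DNA replication and G1/S, 4 fell (Ccne1, E2f1, Chaf1b and Mcm3), beside 4.01% of all tested genes called lower, and 0 rose, with 0 at an unadjusted p under 0.05 upward and 0 upward calls in voom. Ccne1, cyclin E, stood at 41.5, 49.4 and 45.4 FPKM sorted and at 30.5, 22.1 and 30.5 FPKM overnight (-0.70, SE 0.14, limma adjusted p = 0.0333, 2 of 6 fits). Of 30 genes of mitosis and G2/M, limma and voom called 0, and 1 in each direction had an unadjusted p under 0.05. Their pair medians were 0.33, -0.35 and 0.03 in pairs 242, 249 and 251, so pair 249 went the other way from pair 242. The G1/S medians were 0 in pair 242, -0.41 in pair 249 and -0.26 in pair 251. Ccnd2, a D cyclin downstream of IL7, fell from 407, 393 and 501 FPKM to 265, 267 and 239.6 FPKM (-0.74, SE 0.11, adjusted p = 0.0193, 2 of 6 fits), and Ccnd3 was not called, at 989, 1203 and 1163 against 1385, 1121 and 1460.1 FPKM. The 4 G1/S calls became 0 without any 1 sorted control, 0 without both libraries numbered 249, and 11 without overnight library 242, and voom called 2 of 34.

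Genes of the IL7 pathway changed in opposite directions. Il7r, the receptor for IL7 (chr15:9505788-9530176), stood at 40.1, 39.4 and 38.2 FPKM sorted and at 97, 103 and 111 FPKM overnight. The log2 difference was 1.38 (SE 0.08, limma adjusted p = 0.0013), called in all 6 fits and with pair differences of 1.25, 1.37 and 1.52. Feedback inhibitors that STAT5 and related factors induce fell: Socs3 from 148, 89.6 and 120.2 to 68, 70.3 and 62.7 FPKM (-0.80, SE 0.17, adjusted p = 0.04, 2 of 6 fits), and Cish from 58.6, 46.2 and 55.7 to 33.9, 38.1 and 25 FPKM (-0.72, SE 0.17, adjusted p = 0.0455, 1 of 6 fits). Socs2, a further such gene, was not called and overlapped, at 383, 352 and 407 against 392, 297 and 351 FPKM. Of 23 genes of this list 2 rose (Il7r and Bcl2l1) and 3 fell (Socs3, Ccnd2 and Cish). Beside this, 4.29% of all tested genes were called higher and 4.01% lower. Il7r also belongs to the lists of FOXO targets and innate lymphoid cells. The summed genes of innate lymphoid cells, this receptor included, were 118, 314 and 164 FPKM overnight, highest in 249, where Il7r stood between its levels in 242 and 251. Their part in the result was not tested.

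Some genes that make lipids fell. Scd1 and Scd2, which encode the desaturases that put the double bond into fatty acids, lie close together (chr19:44394455-44407879 and chr19:44293674-44306864). Scd2 stood at 211, 123 and 144 FPKM sorted and at 68.9, 36.6 and 45.1 FPKM overnight (-1.66, SE 0.27, limma adjusted p = 0.0226, 2 of 6 fits). Scd1 stood at 135, 118 and 139.9 FPKM sorted and at 62.3, 29.4 and 48.9 FPKM overnight (-1.52, SE 0.25, adjusted p = 0.0226, 2 of 6 fits). In both the highest overnight library lay below the lowest sorted library, and Scd2 kept its order of 242, 251 and 249 in both groups. Srebf1, the transcription factor of fatty acid synthesis, fell from 214, 144 and 159 to 107, 73.7 and 79.9 FPKM (-0.98, SE 0.19, adjusted p = 0.0292, 2 of 6 fits). Of 13 tested fatty acid genes 4 fell, with Acaca, beside 4.01% of all tested genes called lower, and 0 rose, with 0 at an unadjusted p under 0.05 upward and 0 upward calls in voom. The list medians were -0.55, -0.53 and -0.56 in pairs 242, 249 and 251.

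Of 23 tested genes of cholesterol synthesis and uptake 3 fell, beside 4.01% of all tested genes called lower, and 0 rose. An unadjusted p under 0.05 was met by 0 upward and 15 downward, beside 3633 of the 12513 tested genes in either direction. Voom made 0 upward calls. Srebf2, the transcription factor of cholesterol synthesis, fell from 98.2, 81.2 and 87.2 to 68, 62 and 67 FPKM (-0.43, SE 0.09, limma adjusted p = 0.038, 0 of 6 fits). The list medians were -0.60, -0.29 and -0.66 in pairs 242, 249 and 251, and in 14 of the 23 the groups did not overlap with overnight lower, beside 18.1% of all tested genes. The transporter gene Abcg1, which carries sterol out of the cell, fell as well, from 73.2, 42.7 and 43.7 to 28.1, 26.4 and 21.1 FPKM (-1.02, adjusted p = 0.0395, 1 of 6 fits). The calls of both lipid lists became 0 without any 1 sorted control and without overnight library 251.

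Some genes of glycolysis and of the response to low oxygen fell. Pgk1, phosphoglycerate kinase, stood at 629, 418 and 504 FPKM sorted and at 243, 264 and 191 FPKM overnight (-1.14, SE 0.18, limma adjusted p = 0.021, 3 of 6 fits). Egln3, an oxygen-sensing hydroxylase gene that low oxygen induces, fell from 19.2, 16.2 and 16.5 to 10.9, 9.66 and 8.14 FPKM (-0.80, SE 0.13, adjusted p = 0.0233, 2 of 6 fits). Of 29 tested genes 5 fell, with Bnip3, Pdk1 and Ldha, beside 4.01% of all tested genes called lower, and 0 rose, with 1 at an unadjusted p under 0.05 upward and 0 upward calls in voom. The list medians were -0.59 in pair 242, -0.10 in pair 249 and -0.58 in pair 251. Ak4, an adenylate kinase gene outside the list that low oxygen also induces, fell from 5.05, 3.88 and 6.08 to 0.387, 0.602 and 0.376 FPKM (-2.03, SE 0.20, adjusted p = 0.00714, 3 of 6 fits). Ak4 reached 1 FPKM in sorted libraries only, so its direction was set by the filter and its call adds nothing to the list. Without overnight library 249, 9 of 29 list members were called lower, and without sorted control 242 or 251 there were 0.

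**Figure D4:**
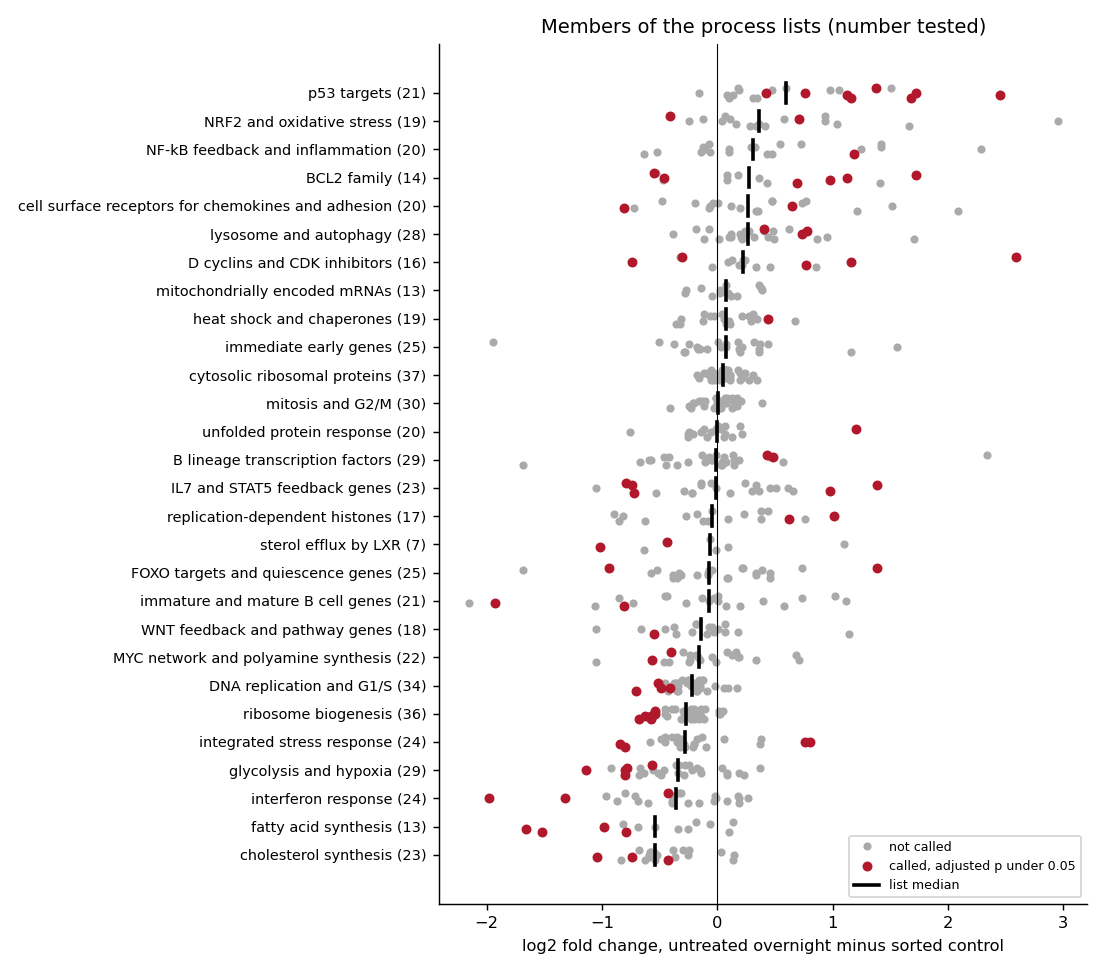
Log2 difference (horizontal, untreated overnight minus sorted control) of each tested member of 28 lists with at least 7 tested genes, with called members in red, the others in grey and black ticks at the list medians. The p53 targets have the highest median, 0.59, and the cholesterol and fatty acid lists the lowest, both -0.54.

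Lists of acute stress gave few calls. Of 25 tested immediate early genes, which answer handling and signals within minutes, limma and voom called 0, and 3 upward and 2 downward had an unadjusted p under 0.05. Fos, the best known of them, stood at 8.4, 29.6 and 4.3 FPKM sorted and at 0.0865, 13.4 and 0.688 FPKM overnight and was not called (limma adjusted p = 0.262). Jun and Nr4a1 were not called either, at 34.2, 47.7 and 31.2 against 20.6, 35.3 and 23.7 FPKM for Jun. Of 19 heat shock genes 1 rose, beside 4.29% of all tested genes called higher. It was the co-chaperone gene Chordc1, from 39.8, 39.9 and 41.8 to 60.2, 54.1 and 52 FPKM (2 of 6 fits), and Hspa1a was at most 0.344 FPKM in any library. Of 20 genes of the unfolded protein response 1 rose, also near that share of 4.29%: Herpud1, of protein disposal from the endoplasmic reticulum, from 136, 121 and 113 to 300.2, 246 and 309.9 FPKM (1.20, SE 0.12, adjusted p = 0.00714, 5 of 6 fits). In the list of the integrated stress response Sesn2 and Ddit4 rose and Slc7a5 and Slc7a1 fell, of 24 tested, beside 4.29% of all tested genes called higher and 4.01% lower. Of these 24, 0 were called in either direction without any 1 sorted control, and 2 were called higher and 9 lower without overnight library 242. The 13 mitochondrially encoded mRNAs gave 0 calls by limma and by voom, with 3 upward and 2 downward at an unadjusted p under 0.05.

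A few interferon genes and regulators changed. Oas1a, an antiviral enzyme gene, stood at 12.6, 10.9 and 10.9 FPKM sorted and at 4.03, 4.38 and 3.57 FPKM overnight (-1.32, SE 0.13, limma adjusted p = 0.00714, 5 of 6 fits). Of 24 tested interferon genes 3 fell, with Rtp4 and Stat2, beside 4.01% of all tested genes called lower, and 0 rose, with 1 at an unadjusted p under 0.05 upward and 0 upward calls in voom, and 0 to 7 of 24 were called lower when 1 library was left out. Of these 24 interferon genes, 1 reached 1 FPKM in sorted libraries only. The pair medians were -0.47, 0.15 and -0.47, so pair 249 differed in sign. Nfkbia, the inhibitor that NF-kB induces, rose from 24.7, 31.2 and 29.4 to 49.6, 89.4 and 63.7 FPKM (1.19, SE 0.21, adjusted p = 0.0255, 2 of 6 fits). It was the only call among 20 genes of that list, beside 4.29% of all tested genes called higher. Nfe2l2, the transcription factor of the oxidative stress response, rose from 34.8, 42.1 and 36.5 to 54.3, 72.6 and 60.9 FPKM (0.71, SE 0.13, adjusted p = 0.0263, 2 of 6 fits). Txnip, which glucose induces and FOXO factors raise, fell from 139, 167 and 159.6 to 69.3, 108 and 68.2 FPKM (-0.94, SE 0.18, adjusted p = 0.0306, 1 of 6 fits). Of 28 lysosome and autophagy genes 3 rose, beside 4.29% of all tested genes called higher, and 0 fell. An unadjusted p under 0.05 was met by 13 upward and 0 downward, beside 3633 of the 12513 tested genes in either direction. Voom made 0 downward calls. The pair medians were 0.14, 0.56 and 0.24, highest in 249. The 3 calls became 0 without any 1 sorted control and without overnight library 251. Beside this, the summed macrophage genes were also highest in overnight library 249, and their part in the lysosome result was not tested.

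Several genes outside the lists changed alike in all 3 pairs. Rgs10, a regulator of G protein signalling, stood at 21.9, 23.1 and 25 FPKM sorted and at 107, 121 and 132 FPKM overnight (2.31, SE 0.10, limma adjusted p = 0.000825, all 6 fits). Mpp3, a membrane scaffold gene, fell from 11.9, 12.8 and 16.3 to 1.67, 1.65 and 2.12 FPKM (-2.37, SE 0.16, adjusted p = 0.00281, all 6 fits). Egfl7, a secreted factor gene and the host of a microRNA (chr2:26580014-26593120), fell from 22.5, 12.7 and 18.4 to 3.98, 2.67 and 1.8 FPKM (-2.31, SE 0.27, adjusted p = 0.0106, 5 of 6 fits). The groups did not overlap in any of these 3 genes. Lrrc32, which encodes GARP, the anchor of latent TGF-β, fell from 11.7, 10.5 and 12.8 to 2.28, 2.92 and 2.04 FPKM (-1.90, SE 0.15, adjusted p = 0.00457, all 6 fits). Tead1, the transcription factor partner of YAP, fell from 4.86, 11.3 and 12.1 to 0.88, 0.199 and 0.565 FPKM (-2.69, SE 0.34, adjusted p = 0.0134, 3 of 6 fits), with a smaller difference in pair 242 (-1.64) than in 249 (-3.36) and 251 (-3.07). Hoxa9, a homeobox gene of progenitors, went from 2.9, 2.05 and 2 to 0.204, 0.0156 and 0.304 FPKM (adjusted p = 0.0177, 3 of 6 fits). Tead1 and Hoxa9 reached 1 FPKM in sorted libraries only, so their direction was set by the filter and their calls are a description.

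**Figure D5:**
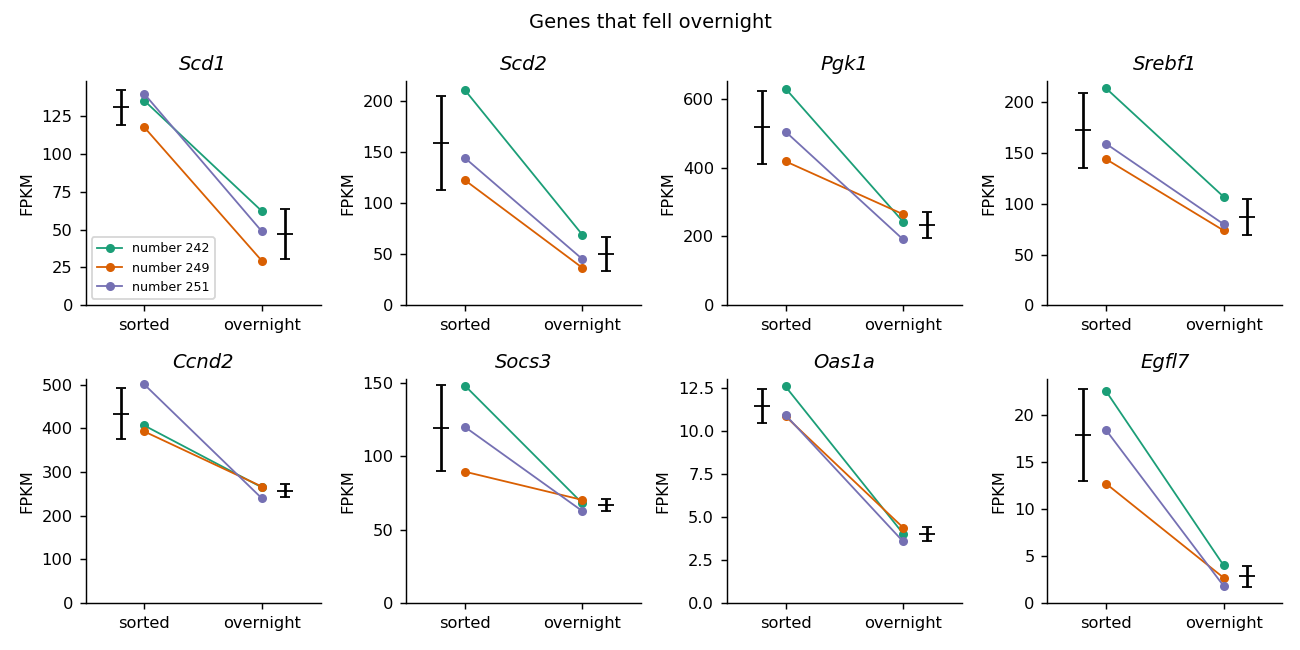
FPKM of 8 genes that fell, in the 3 sorted controls and the 3 overnight cultures, with lines joining libraries of the same number and black bars giving mean ± SD (n = 3). Every overnight library lies below every sorted library, and the drop of Socs3 and Pgk1 is smallest in number 249, from 89.6 to 70.3 and from 418 to 264 FPKM.

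The inhibitor cultures were unsorted and kept overnight too, so they share those conditions with the untreated cultures. Levels on the same side of all 3 sorted controls as in the untreated cultures were seen in Phlda3 (41.4, 28.9 and 38.1 FPKM), Bax (240.4, 225 and 240.4 FPKM), Il7r (85.9, 110.4 and 128 FPKM), Lck (140.1, 115 and 143 FPKM) and Scd2 (72.1, 37 and 50.9 FPKM). Other genes stood elsewhere with the inhibitor: Socs3 was at 4.97, 6.55 and 6.28 FPKM, Scd1 at 18.8, 4.38 and 14.4 FPKM and Myc at 12.6, 12.8 and 9.88 FPKM, each below both the untreated and the sorted groups. In the sorted β-catenin libraries, numbered 244, 255 and 262, Il7r was at 25.8, 38.7 and 34.1 FPKM and Phlda3 at 5.11, 6.39 and 6.71 FPKM, and these libraries were sorted like the controls. The mast cell and basophil list summed there to 1718, 793 and 1420 FPKM, and the monocyte and macrophage list to 708, 341 and 699 FPKM. All these sums lay above those of all 3 sorted controls, so high sums of these lists were not particular to the unsorted cultures. The reason was not tested. The values are set side by side without a test, because the untreated and the sorted controls also serve as the controls of those groups.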

How the data were processed

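RNA was sequenced from 12 libraries, and 6 of them were compared here. Per the submitters' processing notes, HISAT2, HTSeq and Cufflinks were used on GRCm38 (mm10); for each tool, its version and role: not given in the sources used here. What the authors deposited is FPKM per gene, and 0 columns of values per sample were left out. FPKM are not counts, but the values of a gene are whole multiples of 1 fragment, so whole fragments were recovered for 25186 genes. All values (100%) were rebuilt within a relative tolerance of 1e-06, and on simulated data 97.5% of 1940 genes were recovered exactly. Gene positions come from GENCODE M21, which held 98.8% of the 47069 gene IDs.

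A gene had to reach 1 FPKM in 3 or more of the 6 libraries and was tested on log2(FPKM + 1) with limma 3.58.1 in R 4.3.3 (lmFit, eBayes with a trend, 2-sided) without a replicate block, and Benjamini-Hochberg adjusted over all tested genes. Depth limits low genes most. Alternatives were another pseudocount, other filters, quantile normalization, median centring, robust eBayes, all 12 libraries, a replicate block, voom on the recovered fragments and leaving out libraries. The fits without both libraries numbered 242 or 251, and the blocked fits of voom and without both numbered 249, were chosen after seeing the data.

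Named genes were the 12 highest and 12 lowest log2 fold changes and the 12 largest smallest-pair rises and falls among called protein coding genes without overlap and with a usual symbol (no Gm or Rik model, no antigen receptor segment), up to 5 called members of each list, a fixed set of marker genes, and the neutrophil list. Any other gene was chosen after its values were seen. The members and the 39 lists (11 of cell types, 28 of processes) were chosen with earlier results of these data known. A few genes that these rules name are not reported here.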

Additional observations from a re-analysis of the deposited data

How the results depend on the processing

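Against 537 higher and 502 lower calls, a test without the filter on low values gave 202 and 150, a fit over all 12 libraries 264 and 258, and a fit without both libraries numbered 249 gave 177 and 114. Without both libraries numbered 242 there were 5 and 1, and without both numbered 251 there were 0 and 0 by limma. Leaving out 1 library gave 16 to 557 higher and 7 to 528 lower calls. The cause of these changes was not tested, other than that fewer libraries entered some of the fits. Genes moving by at least 1 in all 3 pairs numbered 262 upward and 153 downward with a pseudocount of 0.1, against 164 and 68, and 77 and 39 with a filter of 5 FPKM. The other pseudocount, filter, quantile, median-centring, robust and voom counts lay within 1.5 times the reported ones, from 436 to 572 higher and from 445 to 571 lower. With the replicate block 209 genes were called higher and 145 lower. With the block, voom called 489 and 357, and a fit without both libraries numbered 249 called 635 and 598. For mast cell, neutrophil and monocyte genes, with 8, 0 and 0 calls without the block, the blocked fit called 9, 2 and 2 higher, voom with the block 11, 8 and 7, and the blocked fit without both numbered 249 called 5, 2 and 4. The blocked fit called 6 p53 targets higher and 2 genes of ribosome biogenesis, 0 of G1/S, 4 of glycolysis, 4 of cholesterol synthesis and 6 of fatty acid synthesis lower. Libraries with the same number deviated together with a correlation of 0.14 in 242 and 0.12 in 249 but of 0.0005 in 251, so the numbers were not shown to pair the libraries. Among the 104 named called genes no direction reversed in a setting that tested them, but some settings tested fewer than 104. All 537 and 502 called genes moved the same way in all 3 pairs. Leaving out both libraries of a number therefore could not reverse a direction, and the absence of reversals there supports nothing. Without both libraries numbered 242 the call held in 5 named genes and was lost in 83. Without both numbered 251 it held in 0 and was lost in 89.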
